A study of Mus musculus with 16 samples.

Results

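Transcript levels of 9 genes of the integrated stress response and of serine and mitochondrial one-carbon synthesis were followed with age in mouse calf muscle: Atf4, Ddit3, Trib3, Asns, Phgdh, Psat1, Shmt2, Mthfd2 and Gdf15. The genes were listed by name, and every array probe whose transcript belonged to 1 of them was taken. This gave 12 probes, of 55588 in all, for 9 of the 20122 genes that had a probe and a RefSeq name. Atf4, Phgdh and Psat1 had 2 probes each, and the other genes had 1. Total RNA came from gastrocnemius, a calf muscle made mainly of fast fibres, of untreated female mice of the inbred strain C57Bl/6J. The mice were 3, 15, 24 or 29 months old, with 4 samples per age, each labelled with Cy3 and hybridised to 1 array of a 1-colour Agilent platform. Strain, sex and absence of treatment were shared by every group, so that the labels set the groups apart by age alone. They name neither the animal behind each sample nor any pooling, and what p-values measure is only how far these samples spread, and that spread may be technical.

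A level here is the log2 signal of a probe minus the 75th percentile of log2 signals on the same array. A difference of 1 between 2 ages is thus a 2-fold difference, and levels of different probes cannot be set against each other. Ages were compared with limma over all 16 arrays, and a gene was called changed at a Benjamini-Hochberg adjusted p under 0.05 over the 21777 genes tested. Slide 1 carried the ages 3 and 15 months, and slide 2 carried the ages 24 and 29 months. Only 15 against 3 months and 29 against 24 months were thus compared within a slide, whereas in the other 4 comparisons slide and age cannot be told apart. A slope over age was also fitted with a term for the slide, so that it uses only differences within slides. Slide 1 weighs more in this slope than slide 2, because its ages lie further apart. Each age filled its own row of a slide, so that row and age cannot be told apart either.

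The samples were muscle by their own markers, since 12 of 12 muscle fibre markers were well above background on all 16 arrays. Between 48.0% and 60.9% of spots were well above background and 0 were saturated on an array. The spread between samples was wider at the old ages, with a median SD over all genes tested of 0.165 at 3 months, 0.162 at 15 months, 0.229 at 24 months and 0.254 at 29 months. Weights that limma estimates from this spread were lowest for replicates 1 (0.265) and 3 (0.423) of 29 months and replicates 2 (0.368) and 4 (0.513) of 24 months, against 0.995 to 2.07 for the others. Marker lists of other cells deviated on these arrays, though not on these alone, as mean log2 deviations from the mean of the 16 arrays. The 4 tested of 8 B and plasma cell markers deviated by 2.32 on 24 months replicate 4 and by 2.90 on 29 months replicate 1, against -0.86 to -0.11 over the 15-month arrays and -0.84 to -0.46 over the 3-month arrays. The 5 tested of 12 T and NK cell markers reached 1.93 on 29 months replicate 1. The 8 tested of 9 adipocyte markers reached 2.35 on 24 months replicate 4, against -0.65 to 0.90 over the arrays of 3 and 15 months. On arrays of higher weight, the 8 Schwann cell and nerve markers deviated by 1.32 on 15 months replicate 3 and by 1.20 on 3 months replicate 4. The 11 of 11 fibroblast markers deviated by -1.90 on 24 months replicate 2 and by -1.47 on 29 months replicate 3, against 0.14 to 0.94 over all arrays of 3 and 15 months. In whole muscle, fewer cells of a type and less RNA per cell cannot be told apart.

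The integrated stress response starts with kinases that sense misfolded protein, amino acid shortage, viral RNA or haem shortage and phosphorylate the translation factor eIF2alpha. Protein synthesis then slows as a whole, while upstream open reading frames in its mRNA let the transcription factor ATF4 be made in larger amounts, so that ATF4 is controlled largely at translation. ATF4 and its target CHOP, encoded by Ddit3, raise transcription of genes for amino acid supply, among them Asns, Phgdh, Psat1, Shmt2 and Mthfd2, and of the feedback gene Trib3. Gdf15 encodes a secreted stress hormone, and in muscle with impaired mitochondria it is known to be raised together with the enzymes of serine and one-carbon synthesis.

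Promoters of 4 genes are shown as a description, and no test below uses them. Asns and Trib3 were the members whose promoters held the core of the C/EBP-ATF response element, the site that ATF4 and its partners bind. Ddit3 was the member that passed the test, and Chac1 is shown as a target of ATF4 and CHOP outside the 9 genes that was called at 29 months and held the same core. Each sequence is the RefSeq promoter of build GRCm38.p6, from 250 bases before to 50 bases after the start of the gene, 5′ to 3′ on the strand of the gene. Capitals mark the core TGATGNAAN where it occurs on either strand.
Asns, chr6:7693160-7693459, minus strand: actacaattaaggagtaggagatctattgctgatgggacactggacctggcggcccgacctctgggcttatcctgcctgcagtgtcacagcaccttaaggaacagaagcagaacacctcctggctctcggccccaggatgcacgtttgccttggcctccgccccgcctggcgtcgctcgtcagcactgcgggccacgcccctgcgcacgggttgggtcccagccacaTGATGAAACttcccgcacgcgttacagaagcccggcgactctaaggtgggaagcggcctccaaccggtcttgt
Trib3, chr2:152344011-152344310, minus strand: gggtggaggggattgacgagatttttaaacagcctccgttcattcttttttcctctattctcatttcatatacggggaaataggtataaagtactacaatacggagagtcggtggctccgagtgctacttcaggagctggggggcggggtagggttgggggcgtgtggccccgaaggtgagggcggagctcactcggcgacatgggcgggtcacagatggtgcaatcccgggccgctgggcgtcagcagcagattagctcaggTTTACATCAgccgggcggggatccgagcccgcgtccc
Ddit3, chr10:127290543-127290842, plus strand: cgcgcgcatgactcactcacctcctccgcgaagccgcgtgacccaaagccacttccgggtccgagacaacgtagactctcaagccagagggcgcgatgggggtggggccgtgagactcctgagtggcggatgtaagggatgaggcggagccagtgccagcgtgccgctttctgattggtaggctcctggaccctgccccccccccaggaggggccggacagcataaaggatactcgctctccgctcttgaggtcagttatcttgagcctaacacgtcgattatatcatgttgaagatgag
Chac1, chr2:119350992-119351291, plus strand: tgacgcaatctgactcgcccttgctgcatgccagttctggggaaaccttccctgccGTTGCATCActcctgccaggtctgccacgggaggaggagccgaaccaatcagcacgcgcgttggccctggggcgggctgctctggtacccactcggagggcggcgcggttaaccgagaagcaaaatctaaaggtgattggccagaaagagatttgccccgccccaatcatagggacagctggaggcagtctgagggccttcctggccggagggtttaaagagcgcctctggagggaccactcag

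In the Asns promoter the core began at position -23 from the start, on the strand of the gene, and it overlapped the nutrient sensing element GATGAAAC at position -22. In Trib3 it lay on the opposite strand at position 14, and in Chac1 on the opposite strand at position -194. The core was present in 2 of the 11 promoters listed for the 9 genes and in 3.95% of all 32851 promoters of the table. GATGAAAC was present in 1 of the 11, that of Asns, and in 0.694% of all. The endoplasmic reticulum stress element was present in 0 of the 11 and in 0.119% of all. Of the 97 tested genes of the pathway lists with a promoter in the table, 13 held the core. At 29 against 3 months 2 of these 13 rose, Chac1 and Eif2s3x, 0 fell and 11 were not called. Of the 84 without the core 15 rose, 5 fell and 64 were not called. Over all genes 6.99% were called higher and 7.66% lower, and no test compared these counts. These matches describe the letters of these windows only.

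Ddit3 was the member that the test called, and it was lower at 29 months. Its calls came from comparisons between slides, where slide and age cannot be told apart. Of the 9 members, 8 were tested, each on a probe that was well above background on all 16 arrays. Gdf15 was not tested, because it was well above background on too few arrays of every age. At 29 against 3 months 1 of the 8 was called, Ddit3, where 14.6% of all genes were called and 7.66% were called lower. At 29 against 15 months 1 of the 8 was called, again Ddit3, where 7.74% of all genes were called and 3.83% were called lower. The remaining comparisons called 0 of the 8 in limma. The share of all genes called there was 0.978% at 15 against 3 months, 0.0964% at 24 against 15 months, 4.66% at 24 against 3 months, 1.91% at 29 against 24 months and 0.634% for the slope over age. At an unadjusted p under 0.05, limma had 0 of the 8 at 15 against 3 months and 1 in each of the other 4. The median log2 change of the 8 at 29 against 3 months was 0.03, beside -0.04 over all genes tested, and 4 of the 8 changes were above 0.

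**Figure D1:**
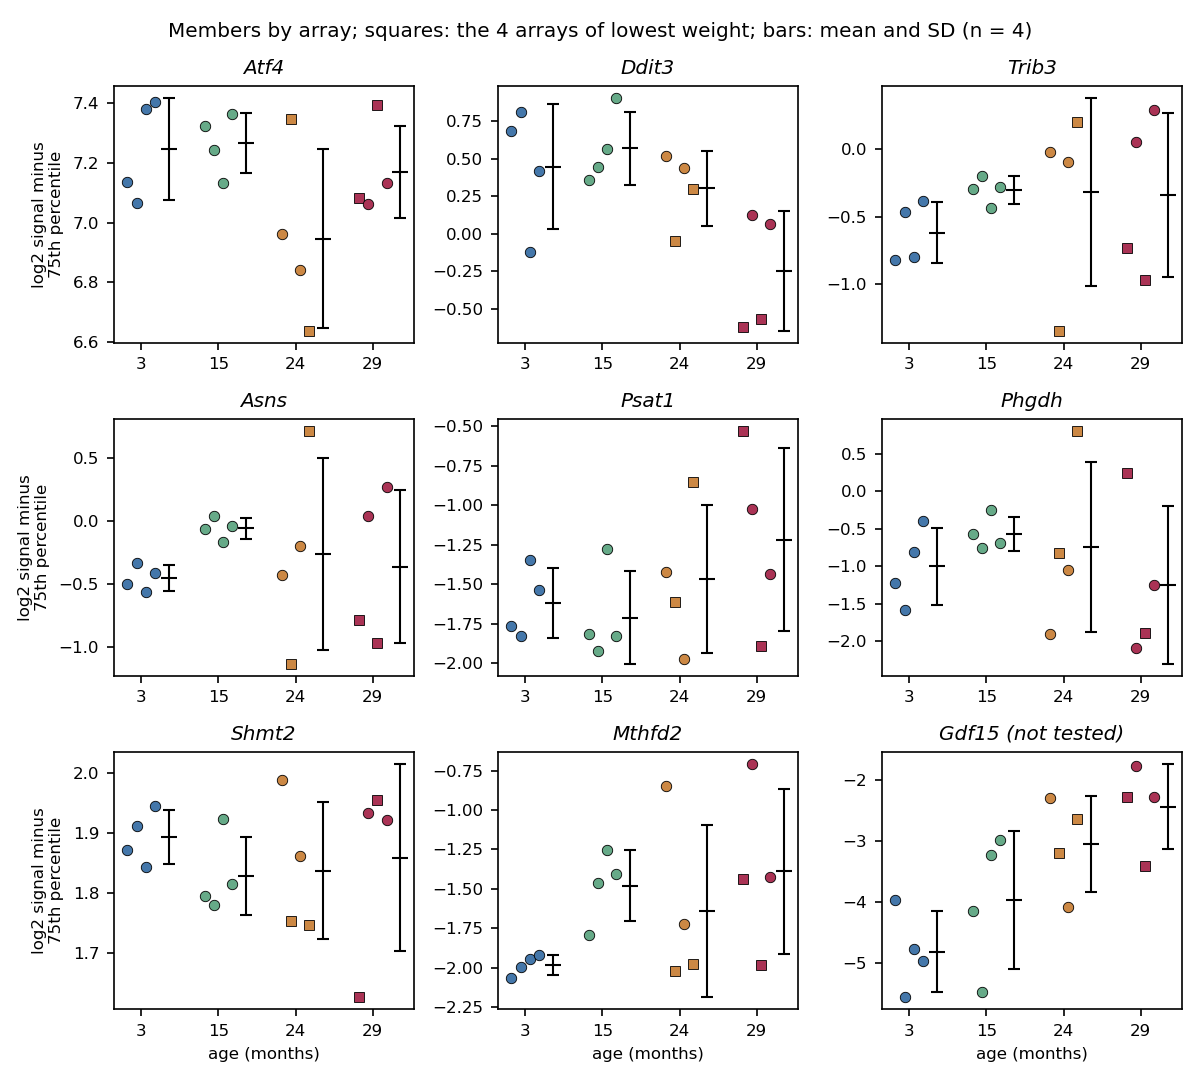
Level of each of the 9 members (log2 signal minus the 75th percentile of the array) on each array against age in months, with the mean and SD of the 4 arrays of an age beside the points and squares for the 4 arrays of lowest weight. Ddit3 lies between -0.62 and 0.12 at 29 months, below all 4 arrays of 15 months, while Asns, Trib3 and Phgdh spread widely at 24 and 29 months.

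Atf4, the transcription factor at the centre of the response, showed 0 called changes in its mRNA. Its brighter probe read 7.13, 7.06, 7.38 and 7.40 at 3 months, 7.32, 7.24, 7.13 and 7.36 at 15 months, 6.96, 7.35, 6.84 and 6.64 at 24 months, and 7.08, 7.06, 7.39 and 7.13 at 29 months. The 4 ages overlapped, and 3 of the 4 arrays of 24 months lay below every other array. Means were 7.25 ± 0.17 at 3 months, 7.27 ± 0.10 at 15 months, 6.95 ± 0.30 at 24 months and 7.17 ± 0.15 at 29 months (SD, n = 4). At 24 against 15 months the log2 change was -0.32 (SE 0.14, limma adjusted p = 0.344), and at 24 against 3 months it was -0.30 (adjusted p = 0.234). At 29 against 3 months it was -0.08 (SE 0.14, limma adjusted p = 0.765). The second probe of Atf4 gave -0.12 for that comparison (SE 0.21, limma adjusted p = 0.766).

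Ddit3 encodes CHOP, a transcription factor that ATF4 induces and that promotes cell death when stress persists. It read 0.68, 0.81, -0.12 and 0.42 at 3 months, 0.36, 0.45, 0.57 and 0.91 at 15 months, 0.52, -0.05, 0.44 and 0.30 at 24 months, and -0.62, 0.12, -0.57 and 0.07 at 29 months. All 4 arrays of 29 months lay below the 4 of 15 months, while 1 array of 3 months and 1 of 24 months fell within their range. Means were in the order 0.57 ± 0.24 at 15 months, 0.45 ± 0.41 at 3 months, 0.30 ± 0.25 at 24 months and -0.25 ± 0.40 at 29 months (SD, n = 4). The first 3 of these ages overlapped, and the differences among them did not pass (limma adjusted p = 0.603 to 0.957).

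Ddit3 was 1.62-fold lower at 29 than at 3 months (log2 change -0.70, SE 0.22, limma adjusted p = 0.0495) and 1.76-fold lower at 29 than at 15 months (log2 change -0.82, SE 0.22, limma adjusted p = 0.0375). Within the second slide, the log2 change at 29 against 24 months was -0.55 (SE 0.22, limma adjusted p = 0.248), which did not pass. The slope over age within slides, which rests mainly on the first slide, was -0.0078 per month (limma adjusted p = 0.946). It says little about the change within the second slide. Both calls lay near the threshold. At 29 against 3 months the call was lost without any 1 of 12 arrays, namely all those of 15 months, replicates 1, 3 and 4 of 24 months, 1 and 3 of 29 months and 1, 2 and 4 of 3 months (adjusted p 0.0165 to 0.144, log2 change -0.89 to -0.58 over all 16 omissions). At 29 against 15 months it was lost without any 1 of 7, namely those of 15 months, replicates 1 and 3 of 29 months and replicate 4 of 3 months (adjusted p 0.0241 to 0.0958). The lowest levels at 29 months were those of replicates 1 and 3, which also had low weights. Without the 4 arrays of lowest weight, an alternative chosen after seeing the data, the log2 change was -0.35 at 29 against 3 months (limma adjusted p = 0.321) and -0.47 at 29 against 15 months (adjusted p = 0.220).

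**Figure D2:**
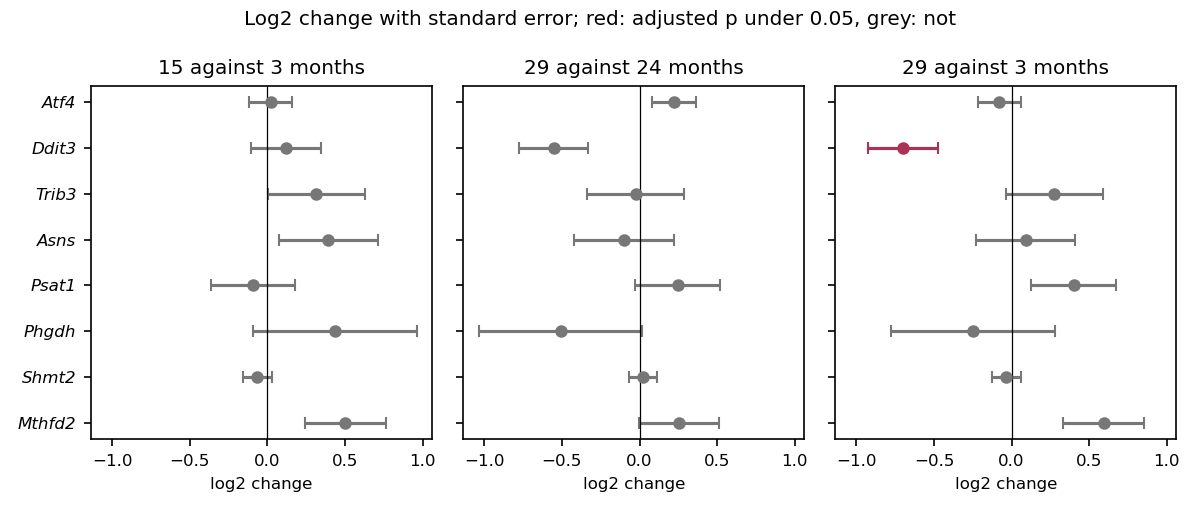
Log2 change of the 8 tested members (points) with its standard error (bars) at 15 against 3 months, 29 against 24 months and 29 against 3 months. Ddit3 at 29 against 3 months, at -0.70, is the coloured point that passed the adjusted p threshold of 0.05, and Mthfd2 has the highest change in each of the 3 comparisons, at 0.50, 0.25 and 0.59.

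Trib3 and Asns were high or low on most of the same arrays at the old ages. Any part of the response element core in this was not tested. Trib3 encodes a pseudokinase that ATF4 and CHOP induce and that feeds back on both. Its level was -0.82, -0.46, -0.80 and -0.39 at 3 months, -0.30, -0.20, -0.44 and -0.28 at 15 months, -0.03, -1.35, -0.10 and 0.20 at 24 months, and -0.73, 0.05, -0.97 and 0.29 at 29 months. Asns encodes asparagine synthetase, which makes asparagine from aspartate and glutamine. Its level was -0.50, -0.33, -0.56 and -0.41 at 3 months, -0.07, 0.04, -0.17 and -0.04 at 15 months, -0.43, -1.13, -0.19 and 0.71 at 24 months, and -0.78, 0.04, -0.97 and 0.27 at 29 months. Both were lowest on 24 months replicate 2, low on 29 months replicates 1 and 3, and high on 24 months replicate 4 and 29 months replicate 4.

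Arrays of the old ages spread widely for both genes. The SD of Asns was 0.10 at 3 months and 0.09 at 15 months, but 0.76 at 24 months and 0.61 at 29 months (n = 4 each). For Trib3 the SDs were 0.23, 0.10, 0.70 and 0.61 in the same order of ages. Means of Asns were -0.45 at 3 months, -0.06 at 15 months, -0.26 at 24 months and -0.36 at 29 months, and those of Trib3 -0.62, -0.30, -0.32 and -0.34. All 4 arrays of 15 months lay above the 4 of 3 months for Asns, on the same slide, whereas those of Trib3 overlapped. With the spread shared over the 4 ages, the log2 change of Asns at 15 against 3 months was 0.39 (SE 0.32, limma adjusted p = 0.795), and that of Trib3 was 0.32 (SE 0.31, limma adjusted p = 0.862). At 29 against 3 months the log2 changes were 0.09 for Asns (SE 0.32, limma adjusted p = 0.889) and 0.28 for Trib3 (SE 0.31, limma adjusted p = 0.609).

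These values depended on the 4 arrays of lowest weight. In the fit of the 8 arrays of 3 and 15 months alone, Asns passed at 15 against 3 months (SE 0.09, limma adjusted p = 0.0439), where 3.31% of all genes were called. Without the 4 arrays of lowest weight, which leaves 2 arrays each at 24 and 29 months, 3 of the 8 members were called at 29 against 3 months, all higher, where 17.2% of all genes were called and 8.23% were called higher. They were Trib3 (log2 change 0.79, SE 0.14, limma adjusted p = 0.0051), Asns (0.60, SE 0.11, adjusted p = 0.0060) and Mthfd2 (0.91, SE 0.25, adjusted p = 0.0292). The same fit called Asns at 15 against 3 months (limma adjusted p = 0.0422, with 3.68% of all genes called) and in the slope over age within slides (0.0375 per month, limma adjusted p = 0.0416, with 2.69% of all genes called). This alternative was chosen after seeing the data, and the part of the marker deviations of those arrays in the values of Asns and Trib3 was not tested.

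**Figure D3:**
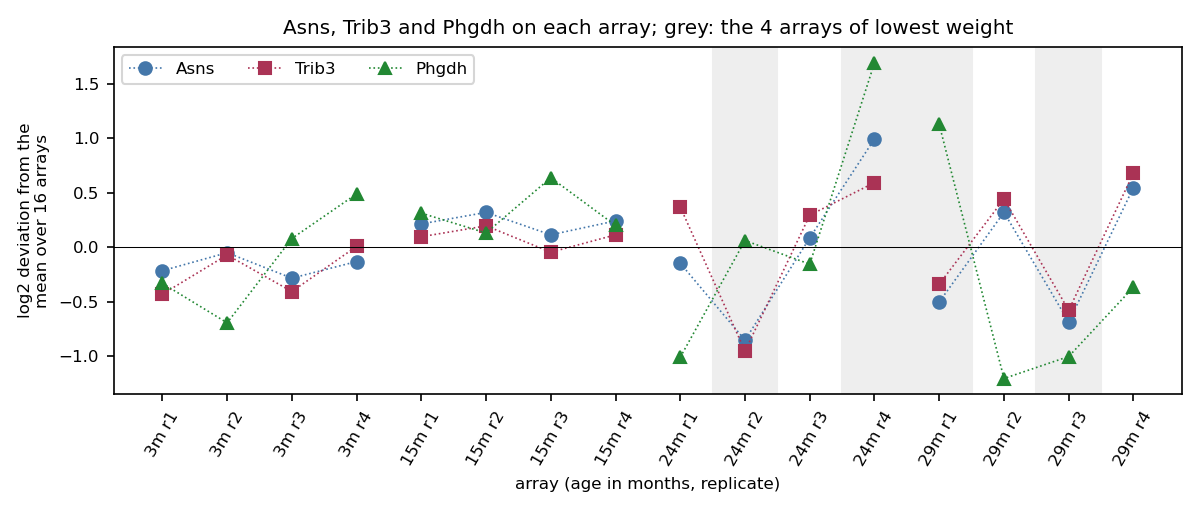
Log2 deviation of Asns, Trib3 and Phgdh from their mean over the 16 arrays, for each array in order of age (months) and replicate, with grey bands on the 4 arrays of lowest weight. Asns and Trib3 follow each other on most arrays, and Phgdh is highest on 24 months replicate 4 and 29 months replicate 1.

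The pathway that makes serine from a glycolytic intermediate runs from Phgdh, the dehydrogenase of its first step, to the aminotransferase Psat1 and the phosphatase Psph. Phgdh read -1.22, -1.58, -0.81 and -0.40 at 3 months, -0.58, -0.76, -0.25 and -0.69 at 15 months, -1.90, -0.83, -1.05 and 0.80 at 24 months, and 0.24, -2.09, -1.89 and -1.26 at 29 months. The 2 highest arrays were 24 months replicate 4 and 29 months replicate 1, the same arrays on which the B and plasma cell markers deviated by 2.32 and 2.90. Their part in the Phgdh levels was not tested. The ages overlapped, with means of -1.0 ± 0.51, -0.57 ± 0.23, -0.74 ± 1.13 and -1.25 ± 1.05 at 3, 15, 24 and 29 months (SD, n = 4). At 29 against 3 months the log2 change was -0.25 (SE 0.53, limma adjusted p = 0.806), and the second probe of Phgdh gave -0.61 (SE 0.53, limma adjusted p = 0.486).

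Psat1 read -1.76, -1.83, -1.35 and -1.54 at 3 months, -1.82, -1.93, -1.28 and -1.83 at 15 months, -1.42, -1.61, -1.97 and -0.85 at 24 months, and -0.53, -1.03, -1.89 and -1.43 at 29 months. Its ages overlapped, with means of -1.62 ± 0.22, -1.71 ± 0.29, -1.46 ± 0.47 and -1.22 ± 0.58 at 3, 15, 24 and 29 months (SD, n = 4). As for Phgdh, the arrays 24 months replicate 4 and 29 months replicate 1 were the 2 highest. The log2 change at 29 against 3 months was 0.40 (SE 0.27, limma adjusted p = 0.365). The probes of Psat1 disagreed, since the dimmer probe, well above background on 12 of 16 arrays, gave -0.57 for the same comparison (SE 0.32, limma adjusted p = 0.252).

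Mitochondrial one-carbon metabolism uses Shmt2, which splits serine into glycine and a one-carbon unit, and Mthfd2, which oxidises that unit on folate and is low in most adult tissues. Shmt2 was the steadiest member. It read 1.87, 1.91, 1.84 and 1.95 at 3 months, 1.80, 1.78, 1.92 and 1.81 at 15 months, 1.99, 1.75, 1.86 and 1.75 at 24 months, and 1.63, 1.93, 1.96 and 1.92 at 29 months. Its age means lay between 1.83 and 1.89, and the log2 change at 29 against 3 months was -0.03 (SE 0.09, limma adjusted p = 0.851).

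Mthfd2 had the largest positive log2 change of the 8 tested members at 29 against 3 months. It read -2.07, -2.0, -1.94 and -1.92 at 3 months, -1.79, -1.46, -1.25 and -1.41 at 15 months, -0.85, -2.02, -1.72 and -1.97 at 24 months, and -1.44, -0.71, -1.98 and -1.43 at 29 months. On slide 1 all 4 arrays of 15 months lay above the 4 of 3 months, and on slide 2 the ages overlapped. Means were -1.98 ± 0.07, -1.48 ± 0.23, -1.64 ± 0.55 and -1.39 ± 0.52 at 3, 15, 24 and 29 months (SD, n = 4), so that the 3 older ages did not differ beyond their spread. The log2 change was 0.50 at 15 against 3 months (SE 0.26, limma adjusted p = 0.529) and 0.59 at 29 against 3 months (SE 0.26, limma adjusted p = 0.146). The slope over age within slides was 0.0432 per month at an unadjusted limma p of 0.0409, which did not pass adjustment (adjusted p = 0.429).

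Gdf15 lay near the limit of detection. Its probe was well above background on 0 of 4 arrays at 3 months, 2 at 15 months, 3 at 24 months and 3 at 29 months. The signal was -3.96, -5.55, -4.76 and -4.96 at 3 months, -4.15, -5.47, -3.23 and -2.99 at 15 months, -2.30, -3.21, -4.07 and -2.64 at 24 months, and -2.29, -1.77, -3.42 and -2.29 at 29 months. All 4 arrays of 29 months read above the 4 of 3 months, whereas 1 array of 24 months lay below the highest of 3 months. A bound takes each array of 3 months at the lowest signal well above background on it, or at the signal of the probe where that was higher. Against this bound, the mean of 29 months was 2.41-fold higher and that of 24 months 1.58-fold higher. Both means include arrays not well above background at their own signal, so that these folds are not strict lower limits. When probes were not filtered on background, Gdf15 passed at 29 against 3 months (limma adjusted p = 0.0198, with 5.90% of 37167 genes called), against signals at 3 months that were not well above background, so that the size of the difference has only the bound above. It did not pass in that fit at 29 against 24 months (log2 change 0.61, limma adjusted p = 0.774) or at 24 against 3 months (adjusted p = 0.144).

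The other genes of the response were taken from lists of the pathway. The kinases that start the response did not pass at 29 against 3 months. Their log2 changes were -0.09 for Eif2ak1, -0.72 for Eif2ak2, -0.17 for Eif2ak3 and 0.14 for Eif2ak4 (limma adjusted p = 0.727, 0.112, 0.704 and 0.317). Of the 14 genes of kinases, phosphatase subunits, eIF2 and its exchange factor, all tested, 2 rose and 0 fell, beside 6.99% of all genes called higher. The 14 had a median log2 change of -0.004, against -0.036 over all genes.

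Ppp1r15a encodes GADD34, the phosphatase subunit that reverses the phosphorylation of eIF2alpha and ends the response. It read 3.45, 3.05, 3.24 and 3.11 at 3 months, 2.67, 2.66, 3.07 and 3.11 at 15 months, 3.50, 3.29, 3.08 and 2.74 at 24 months, and 4.04, 3.54, 4.82 and 4.05 at 29 months. The 29-month arrays lay above all others. Ppp1r15a was 1.87-fold higher at 29 than at 3 months (log2 change 0.90, SE 0.23, limma adjusted p = 0.0168), which did not hold without replicate 2 of 3 months (adjusted p = 0.05005) or without the 4 arrays of lowest weight (log2 change 0.58, adjusted p = 0.0676). Eif2s3x, a subunit of eIF2, was 1.30-fold higher (log2 change 0.38, SE 0.10, limma adjusted p = 0.0190), which did not hold without replicate 1 or 2 of 3 months (adjusted p up to 0.0625) or without the 4 arrays of lowest weight (adjusted p = 0.0518). The call of Eif2s3x was also lost with a minimum of 1.5-fold, median scaling, no filter and only the ages compared, and that of Ppp1r15a with only the ages compared.

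Among 10 stress transcription factors, all tested, 3 rose and 0 fell at 29 against 3 months, beside 6.99% and 7.66% of all genes. Nfe2l2, the regulator of antioxidant genes known as NRF2, was 2.25-fold higher (log2 change 1.17, SE 0.15, limma adjusted p = 0.000227), and Bach1, a haem-sensitive repressor of NRF2 targets, rose 1.96-fold (log2 change 0.97, SE 0.11, adjusted p = 6.73e-05). Cebpb, which pairs with ATF4 and CHOP, was 1.70-fold higher (log2 change 0.77, SE 0.20, limma adjusted p = 0.0170), a call that was lost without replicate 1 or 2 of 3 months (adjusted p up to 0.0549) or without the 4 arrays of lowest weight (adjusted p = 0.0910). Atf3, an early target of ATF4, read 3.63, 0.85, -0.11 and 0.04 at 3 months and 2.63, 2.27, 3.65 and 2.04 at 29 months. With 1 high array at 3 months, its log2 change of 1.55 did not pass (SE 0.63, limma adjusted p = 0.119). Atf5 and Nupr1 had log2 changes of -0.22 and 0.19 (limma adjusted p = 0.517 and 0.696).

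Of 19 other targets of ATF4 and CHOP, 17 were tested, and 6 rose and 1 fell at 29 against 3 months, beside 6.99% and 7.66% of all genes. The median log2 change of the 17 was 0.22. In the fit without the 4 arrays of lowest weight 5 rose and 2 fell, where 1792 of all 21777 genes were called higher and 1960 lower. Ddit4, an inhibitor of the growth kinase mTORC1 that is also induced by glucocorticoids and low oxygen, was 8.93-fold higher (log2 change 3.16, SE 0.54, limma adjusted p = 0.00159). Chac1, which breaks down glutathione and is a marker of the ATF4 and CHOP branch, read 5.50, 5.13, 5.69 and 5.05 at 3 months, 5.58, 5.85, 5.10 and 5.50 at 15 months, 5.78, 3.90, 4.58 and 4.36 at 24 months, and 6.67, 6.11, 7.95 and 6.87 at 29 months. Every array of 29 months lay above every array of the other ages. Chac1 was 2.94-fold higher at 29 than at 3 months (log2 change 1.56, SE 0.39, limma adjusted p = 0.0147) and 4.74-fold higher than at 24 months (log2 change 2.25, SE 0.39, limma adjusted p = 0.0106). Without the 4 arrays of lowest weight these log2 changes in limma were 1.15 (adjusted p = 0.0404) and 1.31 (adjusted p = 0.176).

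The other targets that rose were Bbc3 and Tnfrsf10b, which promote cell death, the translation inhibitor Eif4ebp1, and Cth, an enzyme that makes cysteine. Bbc3 was 1.97-fold higher (log2 change 0.98, SE 0.20, limma adjusted p = 0.00533) and Tnfrsf10b 1.57-fold higher (log2 change 0.65, SE 0.12, limma adjusted p = 0.00235). Eif4ebp1 was 1.82-fold higher than at 3 months (log2 change 0.86, SE 0.22, limma adjusted p = 0.0164) and 2.07-fold higher than at 24 months (log2 change 1.05, SE 0.22, adjusted p = 0.0251), and the second call was lost without replicate 3 or 4 of 24 months (adjusted p up to 0.0711). Cth had a log2 change of 0.76 (limma adjusted p = 0.0395), lost without replicate 2 or 3 of 29 months or 2, 3 or 4 of 3 months (adjusted p up to 0.1199). The 1 target that fell was Cars2, a mitochondrial tRNA synthetase (log2 change -0.43, limma adjusted p = 0.0372), lost without replicate 1 or 3 of 29 months or 1, 2 or 4 of 3 months (adjusted p up to 0.0959). Sesn2, a sensor of leucine, had a log2 change of -0.22 (limma adjusted p = 0.173), and the hormone Fgf21 was well above background on 1 array only and was not tested.

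Among enzymes of serine, glycine and folate metabolism outside the members, more fell than rose at 29 months. Of 21 such genes 18 were tested, and at 29 against 3 months 2 rose and 5 fell, beside 6.99% and 7.66% of all genes, with a median log2 change of -0.26. In the fit without the 4 arrays of lowest weight 2 rose and 4 fell, with a median of -0.13, where 1792 of all 21777 genes were called higher and 1960 lower. Psph, the last enzyme of serine synthesis, read 1.83, 1.86, 1.76 and 1.67 at 3 months, 1.92, 1.89, 1.98 and 1.90 at 15 months, 1.38, 1.41, 1.69 and 1.31 at 24 months, and 0.92, 1.40, 0.98 and 1.15 at 29 months. All arrays of 29 months lay below all of 3 and 15 months and overlapped those of 24 months. Psph was 1.59-fold lower at 29 than at 3 months (log2 change -0.67, SE 0.11, limma adjusted p = 0.00130) and 1.75-fold lower than at 15 months (log2 change -0.81, SE 0.11, adjusted p = 0.00108). Both comparisons lie between slides, where slide and age cannot be told apart. Its means were 1.78 at 3 and 1.92 at 15 months on slide 1, and 1.45 at 24 and 1.11 at 29 months on slide 2. Neither difference within a slide was called.

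Aldh1l2, a mitochondrial enzyme that oxidises formyl-folate, fell the most on this list. It read -1.89, -1.64, -1.17 and -1.62 at 3 months, -2.95, -2.48, -2.39 and -2.91 at 15 months, -3.39, -3.74, -2.61 and -3.69 at 24 months, and -4.37, -3.52, -3.94 and -3.67 at 29 months. The 15-month arrays already lay below all of 3 months. By 24 and 29 months the probe was well above background on 2 and 1 of the 4 arrays. Levels there are thus partly at the limit of detection. The probe passed the filter through its arrays of 3 and 15 months, and the sizes of the falls at the older ages are uncertain. The log2 change was -2.29 at 29 against 3 months (SE 0.25, limma adjusted p = 5.79e-05) and -1.78 at 24 against 3 months (SE 0.25, adjusted p = 0.00179). The slope over age within slides was -0.0936 per month (limma adjusted p = 0.0333), a call that was lost without any 1 array of 15 months or replicate 2, 3 or 4 of 3 months (adjusted p up to 0.101).

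Mtfmt, which formylates the mitochondrial initiator tRNA, and Mthfd2l, a relative of Mthfd2, had log2 changes of -0.48 and -0.45 (limma adjusted p = 0.0312 and 0.0345). Both of these calls were lost without replicate 1 or 3 of 29 months or 1, 2 or 4 of 3 months, and that of Mtfmt also without replicate 3 of 3 months (adjusted p up to 0.0965). Methionine synthase, Mtr, had a log2 change of 0.36 (limma adjusted p = 0.0323), lost without replicate 2 or 4 of 29 months or any 1 array of 3 months (adjusted p up to 0.0873). Shmt1, the cytosolic relative of Shmt2, the mitochondrial ligase Mthfd1l and the folate carrier Slc25a32 did not pass (log2 changes 0.04, -0.88 and -0.18).

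**Figure D4:**
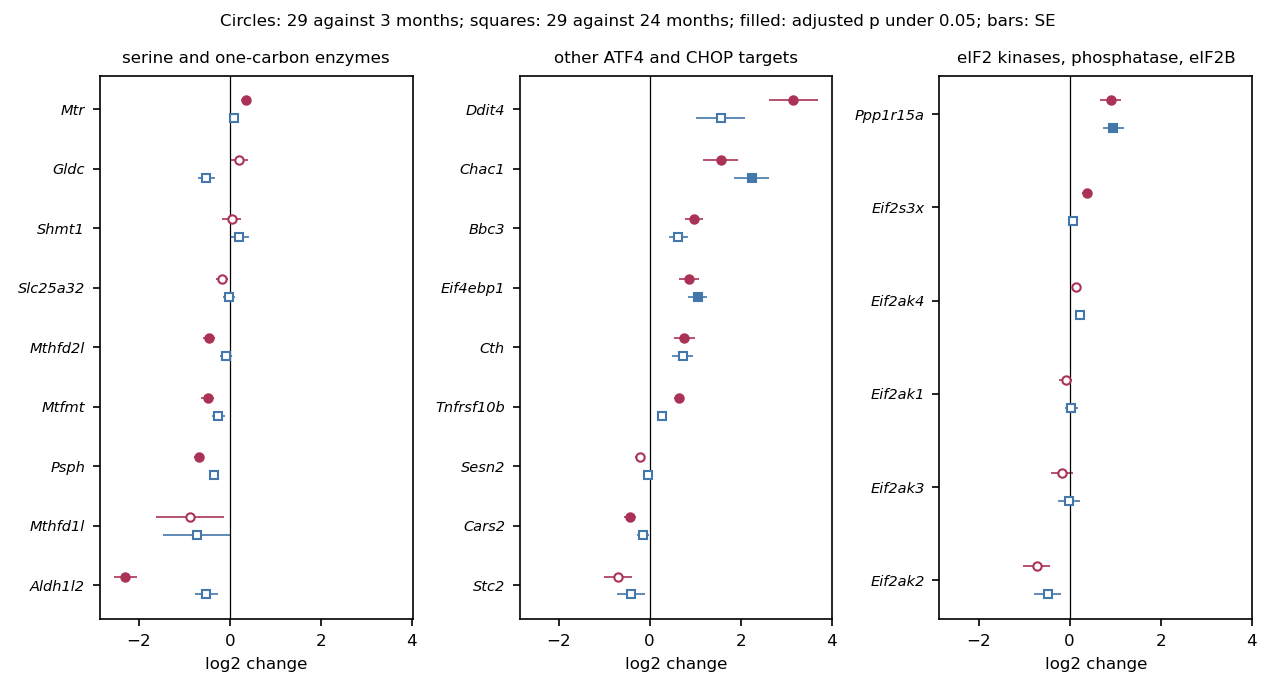
Log2 change with its standard error for the genes named in the text from 3 lists, at 29 against 3 months (circles) and 29 against 24 months (squares), filled where the adjusted p was under 0.05. Aldh1l2 is the lowest of the enzymes shown, at -2.29, and Ddit4 at 3.16 and Chac1 at 1.56 are the highest of the targets shown.

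Genes of amino acid supply and protein folding were also called at 29 against 3 months. Of 13 amino acid transporters 10 were tested, and 4 rose and 0 fell, beside 6.99% of all genes called higher and 7.66% called lower. Slc43a1, a carrier of large neutral amino acids, was 3.32-fold higher (log2 change 1.73, SE 0.39, limma adjusted p = 0.00835) and Slc38a2, a glutamine carrier that ATF4 induces, 1.69-fold higher (log2 change 0.76, SE 0.18, adjusted p = 0.0132). Slc38a1 and Slc7a6 had log2 changes of 1.35 and 0.65 (limma adjusted p = 0.0384 and 0.0481). The call of Slc38a1 was lost without replicate 1 of 15 months, 1 or 2 of 29 months or 2, 3 or 4 of 3 months (adjusted p up to 0.102), and that of Slc7a6 without any 1 of 13 arrays, those other than 24 months replicate 1 and 29 months replicates 2 and 4 (adjusted p up to 0.134). Slc7a5 did not pass (log2 change 0.24, limma adjusted p = 0.524), and the cystine carrier Slc7a11 was not tested. Among 6 tested genes of proline and asparagine metabolism, of 8 listed, 1 rose and 1 fell, beside the same 6.99% and 7.66% of all genes. Glutamine synthetase, Glul, rose 2.78-fold (log2 change 1.47, SE 0.29, limma adjusted p = 0.00383). Aldh18a1 was not tested.

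Of 20 tested genes of cytosolic tRNA charging, from 21 listed, 0 synthetases were called by limma at 29 against 3 months, and the tRNA exporter Xpot fell (log2 change -0.38, limma adjusted p = 0.0318), a call that was lost without replicate 1, 3 or 4 of 29 months or any 1 array of 3 months (adjusted p up to 0.0862). Of 19 tested endoplasmic reticulum genes, from 21 listed, 3 rose and 0 fell, beside the same 6.99% and 7.66% of all genes. Edem1, which sends misfolded protein for degradation, was 1.86-fold higher (log2 change 0.89, SE 0.21, limma adjusted p = 0.0122). The stress sensor Ern1 and the chaperone Dnajb9 had log2 changes of 0.51 and 0.36 (limma adjusted p = 0.0375 and 0.0423), and both calls were lost without replicate 1 or 3 of 29 months or 1, 2 or 4 of 3 months, among others (adjusted p up to 0.121). The main chaperone Hspa5 did not pass (log2 change 0.22, limma adjusted p = 0.340). Of 11 mitochondrial chaperones and proteases, all tested, 1 rose and 0 fell, beside the same 6.99% and 7.66% of all genes. Clpx rose 1.49-fold (log2 change 0.58, SE 0.12, limma adjusted p = 0.00449), while Hspd1 did not pass.

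Of the genes of the lists named as called at 29 against 3 months, Nfe2l2, Bach1, Ddit4, Chac1, Bbc3, Tnfrsf10b, Psph, Aldh1l2 and Glul stayed called under every alternative in which they were tested. All of these calls lie between slides, and no alternative separates slide from age there. Within the second slide, at 29 against 24 months, Nfe2l2, Bach1 and Chac1 were called, whereas Ddit4, Bbc3, Tnfrsf10b, Psph, Aldh1l2 and Glul were not. Besides the omissions of single arrays given above, leaving out the 4 arrays of lowest weight also ended the calls of Cth, Cars2, Mtfmt, Mthfd2l, Slc7a6, Xpot, Ern1 and Dnajb9 (limma adjusted p from 0.0959 for Cars2 to 0.23 for Slc7a6). Median scaling ended those of Cth, Cars2, Mtfmt, Mthfd2l, Mtr, Slc38a2, Slc7a6, Xpot, Ern1 and Dnajb9, and fitting only the ages compared ended those of Eif4ebp1, Slc43a1, Slc38a1 and Edem1, among others.

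Within the second slide, at 29 against 24 months, 1.47% of all genes were called higher and 0.445% lower, in numbers 320 and 97. With arrays scaled to their median the split was 226 higher and 23 lower, and with the deposited log2 values 647 and 428. The pathway lists held 10 called genes there, all higher, among them Chac1, Eif4ebp1, Ppp1r15a, Nfe2l2, Bach1, Slc43a1, Edem1, Dnajb9 and Clpx. By list they were 2 of 10 tested stress transcription factors, 2 of 17 other targets and 2 of 19 endoplasmic reticulum genes. The rest were 1 each of 10 transporters, 14 genes of eIF2 and its kinases, 11 mitochondrial chaperones and proteases, and 18 one-carbon enzymes. The calls of Ppp1r15a and Edem1 were lost without any 1 of 14 arrays, all but replicate 2 of 29 months and, for Ppp1r15a, replicate 1 of 24 months or, for Edem1, replicate 4 of 29 months (adjusted p up to 0.117). That of Dnajb9 was lost without replicate 2, 3 or 4 of 24 months or 3 or 4 of 29 months (adjusted p up to 0.0886). With the 4 arrays of lowest weight left out, these 9 no longer passed in limma. On the first slide, at 15 against 3 months, 0 genes of the pathway lists were called in limma, where 0.978% of all genes were called. With the 4 arrays left out, which changes only the shared spread there, 5 were called, where 3.68% of all genes were called. Slc38a2, 1 of 10 tested transporters, and Bach1 and Nupr1, 2 of 10 stress transcription factors, were higher. Stc2, 1 of 17 other targets, and Aldh1l2, 1 of 18 one-carbon enzymes, were lower. At 24 against 3 months Aldh1l2 fell, and calls of Gldc (log2 change 0.73, limma adjusted p = 0.0441) and Jund (log2 change -0.44, adjusted p = 0.0434) were each lost without most single arrays (adjusted p up to 0.127). For Gldc these were all but replicates 1, 2 and 3 of 29 months and 2 of 3 months. For Jund they were all but replicates 1, 2 and 3 of 29 months, 1 of 15 months, 2 of 24 months and 1 of 3 months. Cth, Cars2, Mtr, Mthfd2l, Slc7a6, Gldc, Jund and Stc2 were named after their values had been seen.

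Genes whose levels ran most like those of each member over the 16 arrays were picked by Pearson's r of log2 levels, as a description, since arrays share their age and slide. The 2 most alike were Dcaf8 and Edc4 for Atf4 (r = 0.860 and 0.849), Tmem218 and Trmt61b for Ddit3 (0.936 and 0.934), and Fads3 and Tmeff2 for Asns (0.932 and 0.902). They were Ppp1r13l and Ecm1 for Trib3 (r = 0.903 and 0.895), Atrx and Lsr for Phgdh (0.888 and 0.866), and Cib1 and Abcg1 for Psat1 (0.857 and 0.855). For Shmt2 they were Yif1a and Hsbp1 (r = 0.929 and 0.916), and for Mthfd2 they were Hsp90aa1 and Hprt (0.892 and 0.830). Members were left out of this search, so that likeness between members is not described by it. None of these 16 genes was on a list of the pathway.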

How the data were processed

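The values were deposited by the authors as scanner files, 1 per array, and, per the file headers, the processed signal intensity of each spot was made by Feature Extraction 10.7.1.1 for a design annotated on mm9. Its background correction is not stated there. A table of log2 values for the series was also deposited, and its scale and centring are not stated by the authors. Its 55821 rows were joined by feature number (r 0.985 to 0.993 with the scanner values) and used as an alternative. Of 62976 spots per array, controls were left out and spots of a probe averaged, which left 55588 probes, after 93 with an outlier spot on any array were dropped. Levels are log2 intensities minus the 75th percentile of the array, which was 7.62 to 8.31. Probes had to be well above background on every array of some age (28435 were), the brightest probe stood for a gene, and group means of 21777 genes were estimated in limma 3.58.1 under R 4.3.3, with Benjamini-Hochberg adjustment. RefSeq symbols were given to 26540 probes through their transcript, and 29048 kept the files' names. Transcript names in the files can be old.

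The number of arrays limits the precision. The members, marker lists and pathway lists were chosen with earlier results of these data known, so counts over them are descriptions. Named are all members, fixed genes of each list, the called genes of smallest p in each list, and the 2 genes outside the members most like each member. Shared replicate numbers were checked and did not pair the samples. Promoters came from RefSeq (GRCm38.p6), and all 9 members matched. The fit was also run on simulated data, which gave a gene the same spread at every age and held no slide difference. That run thus cannot show how the wider spread at old ages or the slides affect the calls. Alternatives changed the scaling, background correction, filter, probe rule, weights, variance model, samples and blocks, and left out each array in turn. Values of a few genes of the lists are not reported here, though they stay in the counts.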

Additional observations from a re-analysis of the deposited data

Results flagged for a closer look

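Within an age, 1 array stood far from the other 3 for 2 members. Psat1 at 15 months read -1.28 on replicate 3, above the other arrays of that age at -1.93 to -1.82. Shmt2 at 29 months read 1.63 on replicate 1, below the others at 1.92 to 1.96. Replicate 1 of 29 months also had the lowest array weight, 0.265. Of 36 groups of 4 arrays tested by Dixon's criterion, these 2 passed it, and chance flags about 1 in 20 groups.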

How the results depend on the processing

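Over 66 results for single genes and their alternatives, 1884 of 1904 values kept their direction, and 1699 kept both their direction and their side of the threshold. The 20 reversals concerned 14 results, and 0 were called in limma under the alternative. With the 4 arrays of lowest weight left out (chosen after seeing the data), the log2 change at 29 against 3 months became 0.13 for Atf5, 0.070 for Eif2ak3, 0.031 for Hspd1, 0.035 for Shmt2 and -0.041 for Slc7a5, and the slope of Ddit3 became 0.0031 per month. It became 0.11 for Mthfd1l with normexp background, -0.088 for Psat1 as the mean over probes, 0.0051 for Shmt2 with array weights and 0.025 with the deposited log2 values, under which Mthfd2 at 24 against 3 months became -0.077. Leaving out 1 array at a time gave ranges across 0 at 29 against 3 months: -0.12 to 0.29 for Asns, -0.21 to 0.028 for Eif2ak1, -0.29 to 0.084 for Eif2ak3, -0.014 to 0.42 for Nupr1, -0.74 to 0.033 for Phgdh, -0.043 to 0.16 for Shmt1 and -0.066 to 0.044 for Shmt2. The call of Ddit3 held in 11 of 29 settings at 29 against 3 months and in 16 of 29 at 29 against 15 months.

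Genes called numbered 213 at 15 against 3 months, 21 at 24 against 15, 1014 at 24 against 3, 1685 at 29 against 15, 417 at 29 against 24, 3190 at 29 against 3 months and 138 for the slope. Array weights gave 1113 at 15 against 3 months, 139 at 24 against 15, 229 at 29 against 24 and 928 for the slope. Median scaling, which moved the median of all genes to -0.15 at 24 against 15 and 24 against 3 months, gave 89 at 15 against 3, 512 at 24 against 3, 582 at 29 against 15, 249 at 29 against 24, 1537 at 29 against 3 months and 68 for the slope. No filter, with more genes tested, gave 106 at 15 against 3, 470 at 24 against 3, 884 at 29 against 15, 153 at 29 against 24 months and 66 for the slope. Fitting only the ages compared, with fewer samples, gave 721 at 15 against 3, 13 at 24 against 15, 558 at 24 against 3, 772 at 29 against 15, 9 at 29 against 24 and 1983 at 29 against 3 months. The deposited log2 values gave 55 at 24 against 15 and 1075 at 29 against 24 months, normexp background 1848 at 24 against 3 and 667 at 29 against 24 months, and a filter on all 16 arrays 10 at 24 against 15 months. Asking for at least 1.5-fold left 1012 at 29 against 15 and 1951 at 29 against 3 months. The slope without a slide term called 2954. Omission of the 4 arrays of lowest weight gave 802 at 15 against 3, 9 at 24 against 15, 52 at 29 against 24 months and 585 for the slope. Leaving out 1 array at a time gave 86 to 279 at 15 against 3, 2 to 88 at 24 against 15, 453 to 1282 at 24 against 3, 829 to 1861 at 29 against 15, 153 to 562 at 29 against 24, 2185 to 3544 at 29 against 3 months and 52 to 202 for the slope. Where no construction is named, the cause was not tested.

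Of the 8 members, array weights, median scaling, only the ages compared and the replicate block called 0 at 29 against 3 and 0 at 29 against 15 months, and leaving out 1 array gave 0 to 1 in both. With no filter, 0 were called at 29 against 15 months, and the 1 called at 29 against 3 months was Gdf15 in place of Ddit3. Fitting only the ages compared called 1 at 15 against 3 months. With the 4 arrays left out, 3 were called at 29 against 3, 0 at 29 against 15 and 1 at 15 against 3 months, and 1 for the slope. Same-numbered samples of 2 ages correlated at -0.47 to 0.303 over 24 pairs, with 6 over 0.1, and 2 of 16 samples correlated best with their own number, so the numbers did not pair them. The replicate block moved the genes called to 32 at 24 against 15, 258 at 29 against 24 months and 87 for the slope. Slide as a random block could not be fitted and was not run. Probes near background, such as those of Gdf15 and Aldh1l2 at old ages, are limited by signal.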
